A study of Danio rerio with 3 samples.

Results

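The genes of cholesterol synthesis, uptake and efflux were followed in the brain of adult zebrafish on 3 arrays. They were taken from a list of 37 names that covers the enzymes of sterol synthesis, the SREBP control system, lipoprotein uptake and sterol transport, and sterol efflux, storage and turnover. Of these, 34 were found on the array under a single gene symbol, among 19260 named genes in all. No probe set carried ggps1, ldlra or npc2 as its only symbol, and these genes were not analysed here. The 24-hydroxylase gene cyp46a1.1, whose mammalian counterpart starts cholesterol turnover in neurons, had the same signal of 3.23 on each array. That lies below the dim limit of 3.45, the lower quartile of all values, so 33 members were kept among 17958 genes.

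All fish were 6 months old and kept at 28 °C. Naive fish, labelled as controls, had a daily cycle of 14 h light and 10 h dark. To deprive fish of sleep, the light was left on for 24 h a day, with 0 h dark, over 3 days. Fear-conditioned fish, titled learning-trained by the submitters, had gone through inhibitory avoidance, training in which animals come to hold back from an act that is followed by something aversive. The sources used here give neither their hours of light nor the strain, the sex or the number of fish per array. Total brain RNA of each group was measured on 1 array, so no difference below has a replicate check, a standard error or a p-value. In such whole-brain RNA, fewer cells of a type and less RNA per cell cannot be told apart.

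In vertebrates cholesterol is built from acetyl-CoA through mevalonate, squalene and a series of sterol intermediates. When sterols in the endoplasmic reticulum are scarce, SCAP carries SREBP transcription factors to the Golgi for cleavage, and the released fragment activates the synthesis genes and the LDL receptor, while INSIG proteins hold the complex back when sterols are plentiful. Oxysterols instead activate the nuclear receptor LXR, which in mammals switches on the efflux pumps ABCA1 and ABCG1, the LDL receptor ligase MYLIP and SREBF1. The mammalian brain makes nearly all of its own cholesterol, because lipoproteins of the blood do not pass the blood-brain barrier, and glia hand it to neurons on particles that hold apolipoprotein E.

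Values are log2 signals as deposited, and a difference is the log2 signal of an array minus that of the array it is compared with. A difference of 1 is 2-fold and one of 0.58 is 1.5-fold. Over the 17958 kept genes, the central 95% of differences ran from -0.36 to 0.36 for fear-conditioned over naive, from -0.58 to 0.32 for sleep-deprived over naive and from -0.61 to 0.32 for sleep-deprived over fear-conditioned. Exactly equal values were frequent in the deposited table. All 3 arrays were equal for 34.2% of kept genes and for 7 of the 33 members, mvk, fdps, lss, ebp, dhcr7, stard4 and nr1h3. Such a tie is a property of the deposited values and does not show that the gene's RNA was at the same level. Of 16 listed neuron genes 14 were found, all of them above the dim limit on each array. The synaptic calcium sensor gene syt1a had a signal of 10.9 on every array. Because 17958 of 19260 named genes pass that limit on their highest array, passing it does not check the tissue label.

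Genes of sterol synthesis were higher on the fear-conditioned array than on the naive array. Of 20 measured synthesis genes, 14 were higher, 6 were exactly equal and 0 were lower, where 30.6% of all kept genes were higher, 46.2% equal and 23.2% lower. Their median difference was 0.22 and that of all kept genes was 0.00. The largest of these differences were those of sqlea and hmgcra, which encode the 2 enzymes regarded as rate-limiting in the pathway. On the sleep-deprived array 10 synthesis genes were higher than naive, 8 were equal and 2 were lower, beside 24.8% of all kept genes higher, 44.3% equal and 30.9% lower, with a median of 0.05. That median was 0.10 with the brightest probe set of each gene and with a dim filter at 4.99. The filter left out the tied genes lss and ebp and also hsd17b7. It kept sqlea, at 4.87 on naive, only through its higher signals on the other arrays, so it is no neutral check. With centring the median was also 0.10, but centring shifts all genes alike and put the median of all kept genes at 0.04. After each array was centred on its median, the 8 tied genes came out at 0.04, so the count of higher genes depends on the scaling while the differences of the leading genes hardly do. Both comparisons use the same naive array, so they are not independent of each other. As the members were chosen with earlier results of these data known, these counts are a description.

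Across all 33 kept members, 2 passed 2-fold upward and 0 downward in fear-conditioned over naive, beside 0.245% and 0.184% of all kept genes. In sleep-deprived over naive 1 member was at least 2-fold higher and 0 lower, beside 0.0947% and 0.668%. In sleep-deprived over fear-conditioned 0 members were at least 2-fold higher and 1 was lower, beside 0.134% and 0.869%. At 1.5-fold, the counts were 3 higher and 0 lower in fear-conditioned over naive, where 0.83% and 0.763% of all kept genes passed. They were 1 higher and 1 lower in sleep-deprived over naive, beside 0.484% and 2.43%, and 0 higher and 2 lower in sleep-deprived over fear-conditioned, beside 0.562% and 2.71%. Most member differences were therefore smaller than 1.5-fold.

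**Figure D1:**
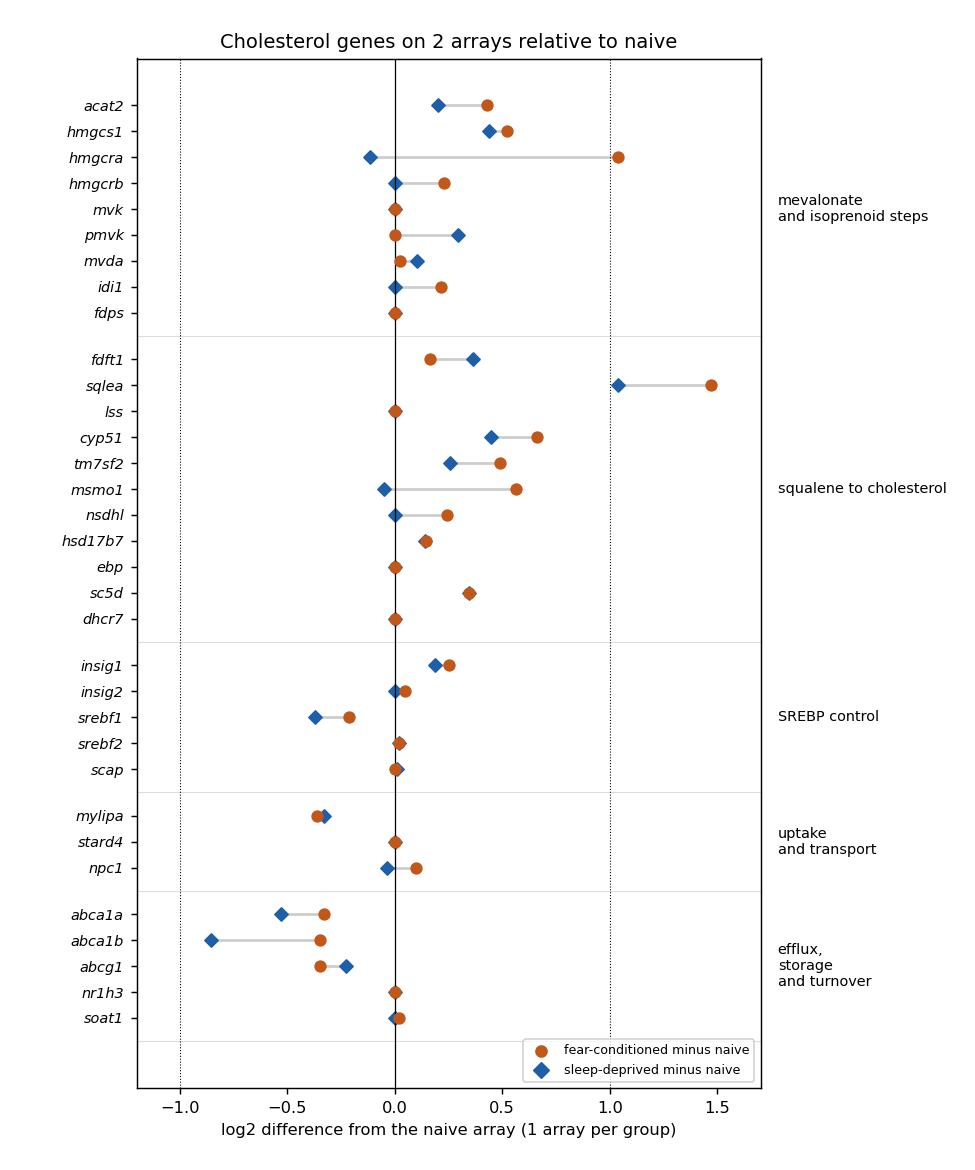
Log2 difference from the naive array for the 33 kept members, ordered by role; circles are the fear-conditioned array, diamonds the sleep-deprived array, grey lines join the values of a gene, and dotted lines mark 2-fold. Synthesis genes lie at 0 or to the right on the fear-conditioned array, up to 1.47 for sqlea, whereas mylipa, srebf1 and the abca1 and abcg1 genes lie to the left on both arrays.

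The pathway opens with enzymes that make mevalonate. The signal of acat2, a thiolase that joins acetyl-CoA units, was 6.90 on naive, 7.34 on fear-conditioned and 7.10 on sleep-deprived. For hmgcs1, the HMG-CoA synthase gene, it was 7.21 on naive, 7.74 on fear-conditioned and 7.65 on sleep-deprived. Naive was the lowest array for both genes, and the hmgcs1 differences of 0.52 and 0.44 both lie above the central 95% of all genes in their comparison. For acat2 only the fear-conditioned difference of 0.43 does so; the sleep-deprived difference was 0.20.

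HMG-CoA reductase, the target of statins, is encoded by a pair of genes in zebrafish. The signal of hmgcra was 7.68 on naive, 8.72 on fear-conditioned and 7.57 on sleep-deprived. It was thus high on the fear-conditioned array alone, 2.06-fold above naive, and 38 of the 17958 kept genes had a larger difference there. With a log2 difference of -1.15 it was the member at least 2-fold lower in sleep-deprived over fear-conditioned, a 2.23-fold difference. Its paralog hmgcrb had a signal of 6.83 on naive, 7.05 on fear-conditioned and 6.83 on sleep-deprived. It too was highest on fear-conditioned, with a smaller difference of 0.23, while naive and sleep-deprived tied.

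The later steps of mevalonate use showed little. Differences from naive for the kinase gene mvk and the farnesyl diphosphate synthase gene fdps were 0.00 on both arrays. For pmvk, phosphomevalonate kinase, fear-conditioned tied with naive and sleep-deprived was at 0.29. For idi1, the isopentenyl diphosphate isomerase gene, the reverse held, with 0.21 on fear-conditioned and a tie on sleep-deprived. The decarboxylase gene mvda was at 0.03 and 0.10, as the mean of 2 probe sets with differences of 0.01 and 0.05 on fear-conditioned and of 0.00 and 0.21 on sleep-deprived. Over the 9 measured genes from acat2 to fdps the median was 0.21 for fear-conditioned over naive and 0.00 for sleep-deprived over naive.

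Squalene synthase, encoded by fdft1, commits the pathway to sterols. Its signal was 6.89 on naive, 7.06 on fear-conditioned and 7.26 on sleep-deprived. Unlike the synthesis genes with the largest differences, fdft1 was highest on the sleep-deprived array, with a difference of 0.37 there and of 0.16 on fear-conditioned.

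Squalene epoxidase, encoded by sqlea, adds the oxygen that later becomes the sterol hydroxyl group. Its signal was 4.87 on naive, 6.34 on fear-conditioned and 5.90 on sleep-deprived. Naive was the low array and stood well apart from the other two. The gene was 2.77-fold above naive on fear-conditioned and 2.05-fold on sleep-deprived, and 11 and 14 of the 17958 kept genes had larger differences in these comparisons. All 3 signals were above the dim limit. The paralog sqleb had a signal near that limit, 3.75, on every array.

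The sterol 14-demethylase gene cyp51, the zebrafish counterpart of the enzyme blocked in fungi by azoles, had a signal of 8.00 on naive, 8.66 on fear-conditioned and 8.45 on sleep-deprived. Its differences were 0.66 and 0.45, the first past 1.5-fold. The sterol C14-reductase gene tm7sf2 had a signal of 6.92 on naive, 7.41 on fear-conditioned and 7.18 on sleep-deprived. Both genes, which act in successive steps, had naive as the lowest and fear-conditioned as the highest array.

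The methylsterol monooxygenase gene msmo1 had a signal of 9.56 on naive, 10.1 on fear-conditioned and 9.51 on sleep-deprived. Like hmgcra, it was high on the fear-conditioned array alone. At 0.56 it was just short of 1.5-fold over naive, and it was 1.53-fold lower on sleep-deprived than on fear-conditioned. The next enzyme in the removal of the 4-methyl groups is encoded by nsdhl, which was at 0.24 on fear-conditioned and tied on sleep-deprived. The ketoreductase gene hsd17b7 was at 0.15 and 0.14, as the mean of a probe set with signal 2.36 on every array, below the dim limit, and a brighter probe set at 0.29 and 0.28.

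Toward the end of the pathway, the desaturase gene sc5d had a signal of 7.80 on naive and 8.14 on both other arrays. Its difference of 0.34 was above the central 95% of all genes for sleep-deprived over naive and just inside it for fear-conditioned over naive. The last enzyme of 1 branch, encoded by dhcr7, had a signal of 8.03 on all arrays. The cyclase gene lss, which closes the sterol rings, and the isomerase gene ebp also tied. In all, 7 of the 20 synthesis genes were above the central 95% in fear-conditioned over naive (sqlea, hmgcra, cyp51, msmo1, hmgcs1, tm7sf2 and acat2) and 5 in sleep-deprived over naive (sqlea, cyp51, hmgcs1, fdft1 and sc5d), with 0 below it in either comparison.

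**Figure D2:**
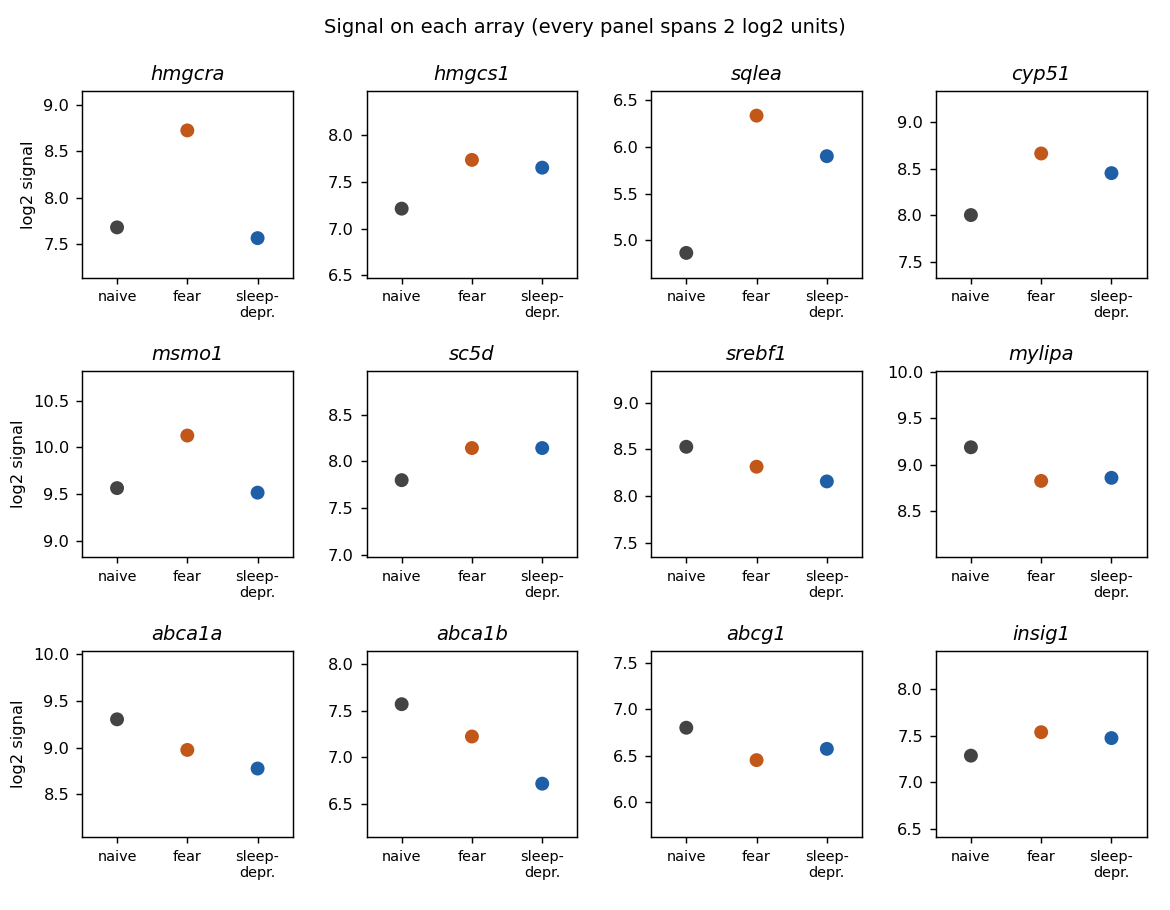
Log2 signal of 12 members on the naive, fear-conditioned and sleep-deprived arrays, 1 point per array, with every panel spanning 2 log2 units. hmgcra and msmo1 are high on the fear-conditioned array alone, sqlea and cyp51 are lowest on naive, and the points of mylipa and of the abca1 and abcg1 genes are highest on naive.

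Sterol synthesis genes are regulated as a set by SREBP2, encoded by srebf2. The srebf2 signal was 8.60 on naive and 8.62 on both other arrays, a difference of 0.02. The sterol sensor scap had differences of 0.00 and 0.01, and insig2 of 0.05 and 0.00. The deposited signals of these regulators therefore differed little between arrays, in part through exact ties, which do not show equal RNA. The arrays do not measure cleavage of the SREBP proteins.

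The retention factor insig1 is itself an SREBP target in mammals. Its signal was 7.29 on naive, 7.54 on fear-conditioned and 7.47 on sleep-deprived, the mean of 2 probe sets. The dimmer probe set had 6.50 on every array. The brighter had 8.07 on naive, 8.58 on fear-conditioned and 8.45 on sleep-deprived, so that its differences from naive were 0.50 and 0.38. The 2 probe sets disagree, and their mean lies midway between them.

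Unlike srebf2, srebf1 was lower on both arrays than on naive. Its product acts mainly on fatty acid genes, and in mammals its gene is an LXR target. The srebf1 signal was 8.53 on naive, 8.32 on fear-conditioned and 8.16 on sleep-deprived. The differences of -0.21 and -0.37 were within the central 95% of all genes.

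The uptake group held 3 measured genes. The ubiquitin ligase gene mylipa, whose mammalian counterpart sends the LDL receptor to degradation, had a signal of 9.19 on naive, 8.83 on fear-conditioned and 8.86 on sleep-deprived. It was highest on naive, with differences of -0.36 and -0.33, the first just below the central 95% of all genes. The lysosomal cholesterol exporter gene npc1 had a signal of 8.04 on naive, 8.14 on fear-conditioned and 8.00 on sleep-deprived, differences of 0.10 and -0.03. The sterol carrier gene stard4, an SREBP target in mammals, had a signal of 6.75 on all arrays.

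The efflux pumps were lower on both arrays than on naive. ABCA1 loads cholesterol onto lipid-poor apolipoproteins and ABCG1 onto formed particles. The signal of abca1a was 9.30 on naive, 8.97 on fear-conditioned and 8.78 on sleep-deprived. For abca1b it was 7.57 on naive, 7.22 on fear-conditioned and 6.72 on sleep-deprived. Both abca1 genes were highest on naive and lowest on sleep-deprived, and abca1b was 1.81-fold lower on sleep-deprived than on naive, the member past 1.5-fold in that direction.

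The signal of abcg1 was 6.80 on naive, 6.45 on fear-conditioned and 6.57 on sleep-deprived. Its order differed from that of the abca1 genes, with fear-conditioned as the lowest array. Differences from naive were -0.33, -0.35 and -0.35 for abca1a, abca1b and abcg1 on fear-conditioned, and -0.53, -0.85 and -0.23 on sleep-deprived. In fear-conditioned over naive, 539, 481 and 480 of the 17958 kept genes had lower differences than abca1a, abca1b and abcg1, which puts all 3 inside the central 95% of genes, near its lower end. In sleep-deprived over naive only abca1b, with 179 genes lower, was outside it.

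Over the 5 measured genes of efflux, storage and turnover the median was -0.33 on fear-conditioned and -0.23 on sleep-deprived. The LXR gene nr1h3 itself had a signal of 7.56 on all arrays. The acyltransferase gene soat1, which stores cholesterol as esters, was at 6.05 on naive, 6.07 on fear-conditioned and 6.05 on sleep-deprived. Grouped after their values were seen were 5 members known as LXR targets in mammals, abca1a, abca1b, abcg1, mylipa and srebf1. They had a median of -0.35 in fear-conditioned over naive and of -0.37 in sleep-deprived over naive, with 5 of 5 lower in each comparison, beside 23.2% and 30.9% of all kept genes. As the group was chosen on these values, 5 of 5 lower follows from the choice and cannot be weighed against the share of all kept genes. Both comparisons also share the naive array, so the counts are a description.

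**Figure D3:**
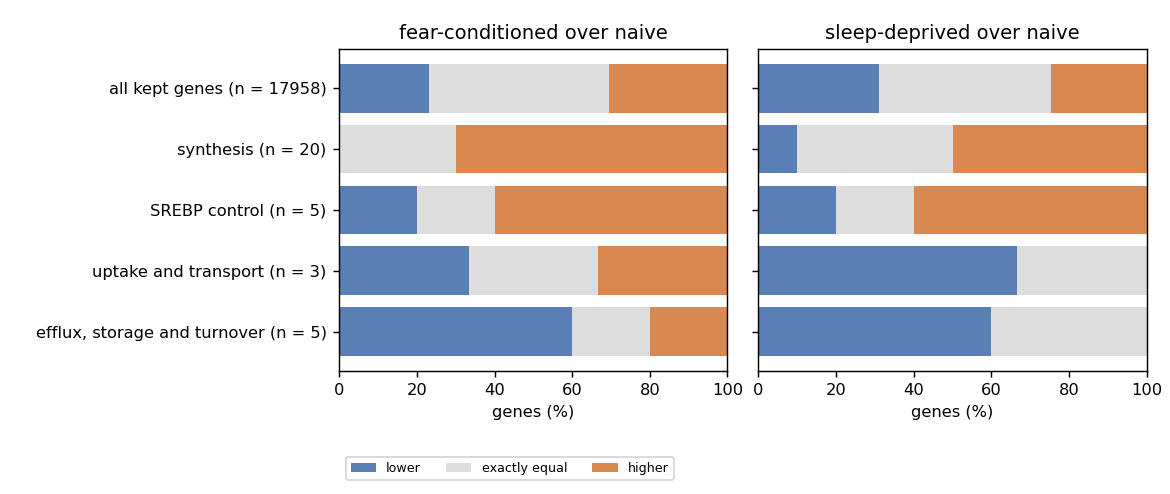
Percent of genes that were lower than, exactly equal to or higher than the naive array, for all kept genes and for the members by role; left, fear-conditioned over naive, and right, sleep-deprived over naive. Of the 20 synthesis genes 14 were higher on the left and 10 on the right, against 30.6% and 24.8% of all kept genes; the groups of 3 and 5 genes are too small for their shares to be read closely.

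Set directly against each other, the sleep-deprived and fear-conditioned arrays differed in synthesis most at hmgcra and msmo1. Those 2 were the members below the central 95% of all genes, at -1.15 and -0.61, and 0 members were above it. Next among synthesis genes was sqlea, at -0.43, inside the central 95%. Of the 20 synthesis genes, 11 were lower on sleep-deprived, 6 equal and 3 higher, beside 34.5% of all kept genes lower, 42.4% equal and 23.1% higher. The median of -0.05 was 0.00 when arrays were centred on their medians, which moved that of all kept genes from 0.00 to 0.05. It was -0.21 when genes whose highest array was under 4.99 were left out, so its size depends on the processing. The synthesis genes left out were lss and ebp, which tied, and hsd17b7, at -0.01. The genes higher on sleep-deprived were pmvk (0.29), fdft1 (0.20) and mvda (0.08). This comparison is the difference of the previous ones and adds no measurement of its own.

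Further genes of sterol metabolism gave no such pattern. Of 33 listed, 22 were measured; 5 were higher, 10 equal and 7 lower in fear-conditioned over naive, and 6, 8 and 8 in sleep-deprived over naive. The shares higher, 22.7% and 27.3%, lay near the 30.6% and 24.8% of all kept genes, and the median was 0.00 in both. The shares lower were 31.8% and 36.4%, beside 23.2% and 30.9%. The oxysterol hydroxylase gene cyp39a1, which in mammals acts on 24-hydroxycholesterol, had a signal of 8.07 on naive, 7.40 on fear-conditioned and 7.33 on sleep-deprived. It was lower on both arrays, with differences of -0.67 and -0.74, and was the gene of this list past 1.5-fold in each comparison. Others lay closer to 0, with spring1, a factor needed for SREBP processing in mammals, at 0.32 and 0.09, and gramd1bb, a member of a family that moves cholesterol from the plasma membrane, at 0.24 and 0.41.

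Lipoprotein and further efflux genes numbered 21 kept of 27 listed, with 4 higher, 7 equal and 10 lower in fear-conditioned over naive and 5, 9 and 7 in sleep-deprived over naive. The shares higher were 19.0% and 23.8%, beside 30.6% and 24.8% of all kept genes. The shares lower were 47.6% and 33.3%, beside 23.2% and 30.9%. Medians were 0.00 in both. The apolipoprotein E gene apoeb had a signal of 8.84 on naive, 8.38 on fear-conditioned and 7.75 on sleep-deprived, and was the gene of the list at least 2-fold lower on sleep-deprived, at -1.09, or at -0.95 with its brightest probe set alone, short of 2-fold. The lipoprotein lipase gene lpla had a signal of 9.15 on naive, 8.71 on fear-conditioned and 8.47 on sleep-deprived, and the phospholipid transfer gene pltp one of 8.96 on naive, 8.62 on fear-conditioned and 8.45 on sleep-deprived. In these genes, named for the size of their differences, naive was the highest and sleep-deprived the lowest array. The same order held for abcg4a, at -0.10 and -0.41, and for lcat, at -0.06 and -0.27. It did not hold across the list, with mylipb at 0.06 in both comparisons, cyp7b1 at -0.03 and 0.27, and abcg5 and abcg8 tied. The lists of lipoprotein and of microglia and macrophage genes both hold apoeb.

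Genes of fatty acid synthesis, which SREBP1 drives in mammals, were not higher as the sterol genes were. Of 16 measured, 5 were higher, 6 equal and 5 lower in fear-conditioned over naive, and 2, 5 and 9 in sleep-deprived over naive. The shares higher were 31.2% and 12.5%, beside 30.6% and 24.8% of all kept genes. The shares lower were 31.2% and 56.2%, beside 23.2% and 30.9%. The medians were 0.00 and -0.02. After centring the latter was 0.02, beside 0.04 for all kept genes. The desaturase gene scd had a signal of 8.04 on naive, 7.79 on fear-conditioned and 7.14 on sleep-deprived, the list's lowest difference at -0.90. Its paralog scdb was at 0.24 on fear-conditioned, the list's highest difference there, and at -0.19 on sleep-deprived. The glycerol phosphate acyltransferase gene gpam was lower on both arrays, at -0.48 and -0.49. Genes that use isoprenoids, such as the prenyltransferase and coenzyme Q genes, had medians of 0.00 over 11 genes and 0 genes past 1.5-fold in both comparisons; the highest difference was that of pdss2, which helps make the coenzyme Q tail, at 0.28 on sleep-deprived.

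**Figure D4:**
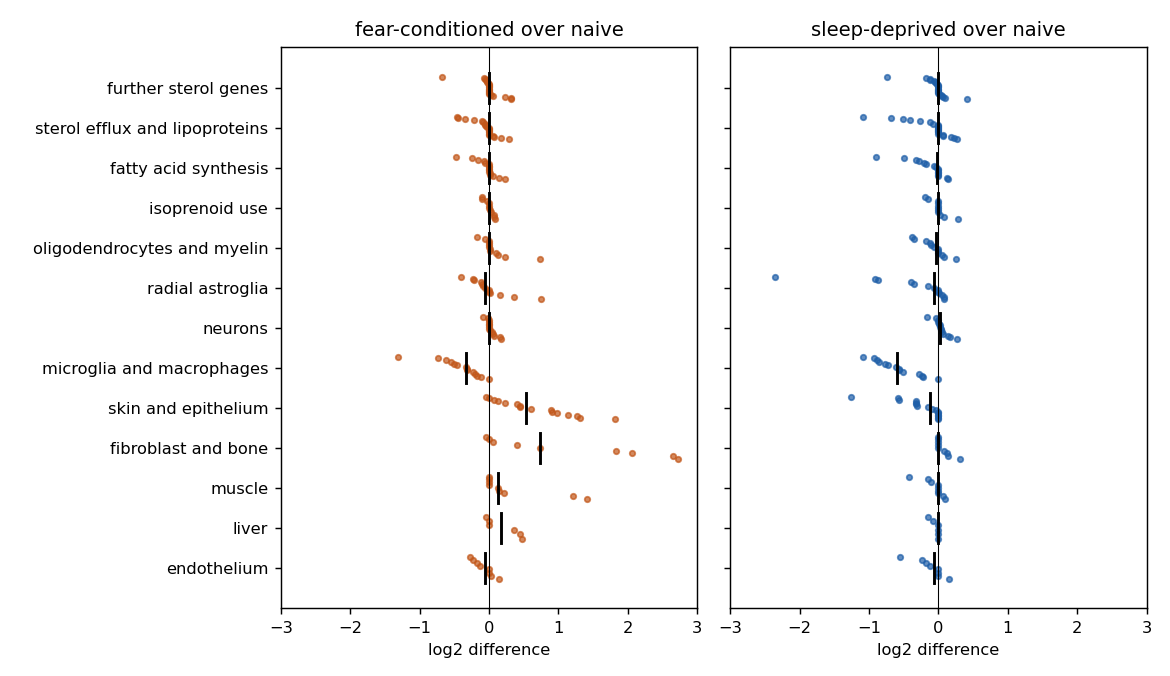
Log2 difference from naive for each gene (points) of 4 other lipid pathway lists and 9 cell type marker lists, with list medians as black bars; left, fear-conditioned, and right, sleep-deprived. The 4 lipid lists have medians near 0, microglia and macrophage genes lie at or below 0 in both panels, and skin, fibroblast and bone genes lie to the right on the fear-conditioned array.

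Markers of other cell types differed between the same arrays. All 16 of 16 skin and epithelium genes were measured, with a mean signal of 5.76 on naive, 6.42 on fear-conditioned and 5.51 on sleep-deprived, and 14 of them were higher on fear-conditioned than on naive, beside 30.6% of all kept genes. The 9 kept fibroblast and bone genes had a mean signal of 5.55, 6.71 and 5.62 in the same order. The 9 kept muscle genes had one of 4.49, 4.84 and 4.43, with pvalb2 at 1.42 and ckma at 1.21 on fear-conditioned over naive. Of these 9, 5 were higher and 4 equal there, with a median of 0.12, and pvalb2 was at 3.48 on naive, near the dim limit. The 6 kept liver genes, from an organ with high sterol synthesis, had a mean signal of 4.72, 4.93 and 4.68 in the same order. Of them, 3 were above the central 95% of all genes on fear-conditioned, fga (0.48), apoa2 (0.45) and fgb (0.36). On naive these 3 liver genes had signals of 3.57, 3.95 and 4.06, near the dim limit of 3.45. Of the other liver genes, fgg and a1cf tied and cp was at -0.04. The liver median was 0.18. With a dim filter at 4.99 cp alone was left, so the value of -0.04 there was cp's own. On the array where sterol synthesis genes were high, these markers of other tissue were thus also above naive on average. For liver that average rests on the 3 genes near the dim limit, and for muscle mostly on pvalb2 and ckma. On the sleep-deprived array skin genes had a median of -0.12, and fibroblast and bone, muscle and liver genes had medians of 0.00. Of the 20 synthesis genes, 10 were above naive on that array, beside 24.8% of all kept genes, led by sqlea, cyp51 and hmgcs1. Another 8 tied with naive, and 2 were lower, hmgcra (-0.12) and msmo1 (-0.05). The part of such tissue in the synthesis result was not tested.

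Of 14 measured microglia and macrophage genes of 16 listed, 13 were lower in each comparison with naive and 1 was equal, beside 23.2% and 30.9% of all kept genes lower. Their mean signal was 7.80 on naive, 7.38 on fear-conditioned and 7.21 on sleep-deprived, the order also seen for abca1a and abca1b, which macrophages express strongly in mammals. Mean signals of the 8 endothelium genes had the same order, at 6.78, 6.70 and 6.66, as did those of the lipoprotein and fatty acid lists. The part of microglia, macrophages or endothelium in the efflux result was not tested. Oligodendrocyte and myelin genes, which mark the cells that build cholesterol-rich myelin, had medians of 0.00 over 12 genes in fear-conditioned over naive and of -0.03 in sleep-deprived over naive. After centring the latter was 0.01, beside 0.04 for all kept genes. In fear-conditioned over naive 7 of the 12 genes were higher, 3 equal and 2 lower. The share higher was 58.3%, beside 30.6% of all kept genes. The highest difference there was that of gpr17, at 0.73, past 1.5-fold, while sox10 and cldn19 were higher by only 0.01 and 0.00. In sleep-deprived over naive 3 were higher, 3 equal and 6 lower, and the share lower was 50%, beside 30.9% of all kept genes. Radial astroglia genes had medians of -0.06 over 13 genes in both comparisons, the second -0.01 after centring, but single genes lay far from it. The intermediate filament gene gfap was at 0.76 on fear-conditioned and -0.91 on sleep-deprived, and nes and cyp19a1b were at -2.36 and -0.87 on sleep-deprived. On fear-conditioned id1 was at 0.36 and gja1b at -0.40, and the highest difference on sleep-deprived was 0.08. In each comparison 4 of the 13 genes were higher, 2 equal and 7 lower. The shares were 30.8% higher, beside 30.6% and 24.8% of all kept genes, and 53.8% lower, beside 23.2% and 30.9%. The part of these cells in the sterol gene results was not tested.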

How the data were processed

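Brain RNA of 3 groups of zebrafish was measured on 1 array each. Per the labels' protocols, Trizol-extracted total RNA was turned into fragmented, biotin-labelled sense cDNA. The values deposited by the authors are read as log2 signals from their range (0.61 to 13.4); the sources used here give neither the base of the logarithm nor the normalization method, and the arrays share a median of 4.99. Probe sets were named through an annotation of the platform that may be outdated: 20806 of 75212 had 1 symbol, 855 several and 53551 were unnamed there. Symbols were updated by Entrez identifier with RefSeq (GRCz12tu) for 20323; 483 kept theirs. Probe sets of a gene were averaged, genes whose highest array was under 3.45 were left out (1302 of 19260), and differences were taken with pandas 2.3.3. Values within 1e-09 counted as equal. With 1 array per group, lists are described by counts and medians beside all kept genes. Signals of different genes are not compared, since probe sets respond differently. The counting step was tested on simulated data. The members and lists, and the rule for named genes (members past 1.5-fold or fixed by name, and the leading genes of other lists), were chosen with earlier results of these data known; further members are described so that all are accounted for. No sequences or coordinates are given, as no sequences were available and a planned search for promoter motifs was not run. Alternatives were array centring, quantile normalization, lowess (fraction 0.3), the brightest probe set, other dim filters and a 1.5-fold threshold.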

Additional observations from a re-analysis of the deposited data

How the results depend on the processing

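Under the 7 alternatives, counts of members at least 2-fold apart were equal to those reported, except with a 1.5-fold threshold. With it, higher members went from 2 to 3 (cyp51) in fear-conditioned over naive, and lower members went from 0 to 1 (abca1b) in sleep-deprived over naive and from 1 to 2 (hmgcra and msmo1) in sleep-deprived over fear-conditioned. Over all kept genes that threshold gave 149 higher and 137 lower genes in fear-conditioned over naive in place of 44 and 33. In sleep-deprived over naive it gave 87 and 436 in place of 17 and 120, and in sleep-deprived over fear-conditioned 101 and 487 in place of 24 and 156. Of 816 values recomputed, 20 moved by more than 0.1 in log2, or by over 1.5 times for a count. They include apoeb, at -0.28 and -0.95 with its brightest probe set. Among members they were insig1, at 0.50 and 0.38 with its brighter probe set, and the medians of synthesis genes with a dim filter at 4.99, -0.21 in sleep-deprived over fear-conditioned, and of the squalene to cholesterol steps. The member median in sleep-deprived over fear-conditioned, -0.02, turned to 0.03 with centring, which moved the median of all kept genes from 0.00 to 0.05. Array number and unknown normalization limit precision. No paired analysis was possible because each group has 1 array.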
